A study of Danio rerio with 9 samples.

Results

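The contacts described here join sites more than 1 and at most 5 Mb apart on the same chromosome, in the caudal fin of adult zebrafish before and during regeneration. They were taken from the 3 deposited lists of called contacts by their span, the distance between the starts of their 10 kb anchor bins, on all chromosomes but chromosome 4. The rule left 271 of 28421 contacts at 0 days post amputation (dpa), 235 of 18712 at 1 dpa and 366 of 26988 at 4 dpa. Together they are 474 different bin pairs, on all 24 chromosomes examined.

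HiCAR was used, an assay in which the transposase Tn5 tags open chromatin in cross-linked nuclei and the tag is ligated to DNA lying near it in space. The fish were wild type, of the outbred Ekkwill (EK) strain, 6 to 8 months old, and anaesthetised with 2-phenoxyethanol, and fins were amputated at 50% of their length. The 0 dpa group is freshly amputated, uninjured fin, and the other groups are fin clips taken 1 and 4 days later. Each time point had 3 pools of 10 fins. The deposited lists give 1 value per time point and none per pool, so no SD and no test between times could be made. Depth is unknown, because only called contacts are listed, and every comparison below is between lists. Each pool held all cells of the clip, so a change in how often sites meet and a change in the mix of cells cannot be told apart.

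Contact frequency along a chromosome falls steeply with distance. Loops made by cohesin and held at CTCF sites mostly join sites within the same neighbourhood, while contacts over megabases have been described in other systems between distant regions in the same chromatin state, such as active gene clusters or regions bound by Polycomb proteins. In the fin, wound epidermis first covers the stump and a blastema of proliferating cells then builds the lost part. The lists name no genes, and no annotation or sequence of danRer11, the build named in the submitters' processing notes, was used here. Contacts are therefore given by their 1-based positions in danRer11.

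At these distances the deposited expected count, the authors' background for a bin pair, lay close to 1. Its median was 1.19, 1.19 and 1.24 at 0, 1 and 4 dpa. The observed counts had medians of 16, 17 and 16, with highest values of 59, 60 and 68. The median count over expected was 13.6, 13.8 and 12.6, against 3.83, 4.13 and 3.9 over all contacts outside chromosome 4. The lists hold no contact with fewer than 12 counts. A pair with an expected count near 1 can thus be listed only with a high ratio. The lowest expected counts in this range were 1.01, 1.01 and 1.05. Over 5 Mb the medians were still 1.02, 1.02 and 1.03, so the deposited background did not fall below 1 with distance. Count over expected is therefore close to the count itself here. Setting it against contacts of all spans does not compare like with like. The highest FDR, the authors' false discovery rate, was 5.72e-05 among the contacts of this range, which makes the count the limit that mattered.

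Long contacts were more numerous at 4 dpa than at 0 dpa, although the 4 dpa list as a whole was shorter. Their number at 4 dpa was 1.35 times that at 0 dpa, whereas all contacts outside chromosome 4 numbered 0.949 times as many. At 1 dpa the ratios were 0.867 for these contacts and 0.655 for all. In the class just below, over 500 kb and up to 1 Mb, there were 369, 277 and 494 contacts at 0, 1 and 4 dpa. In the class above, over 5 Mb, there were 316, 293 and 284. The excess at 4 dpa was thus shared with the shorter class and absent from the longer one, with no test available for either difference.

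Within the range, the difference between 4 and 0 dpa narrowed with span. Contacts of up to 1.5 Mb numbered 114, 105 and 176 at 0, 1 and 4 dpa, and those over 1.5 and up to 2 Mb numbered 64, 52 and 91. Those over 4 Mb numbered 15, 11 and 6, the only span bin with fewer contacts at 4 than at 0 dpa. The median span was 1.6, 1.59 and 1.53 Mb. At the lower limit of the rule, the 50 kb just inside held 8, 11 and 12 contacts with median counts of 18, 13 and 14, and the 50 kb just outside held 10, 9 and 14 with median counts of 17.5, 23 and 16.5. At the upper limit, the 200 kb inside held 1 contact in each list, and the 200 kb outside held 5, 3 and 4.

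**Figure D1:**
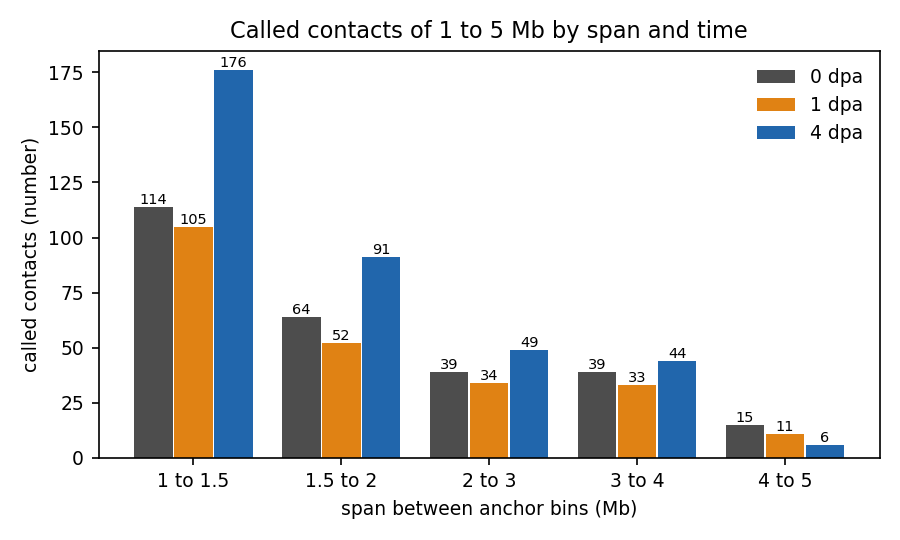
Number of called contacts (vertical axis) by span between anchor bins in Mb (horizontal axis) in the 0, 1 and 4 dpa lists, outside chromosome 4, with 1 list per time point and no error bars. The 4 dpa bars stand above the others up to 4 Mb, with 176 against 114 at 0 dpa in the shortest bin, and below them over 4 Mb, with 6 against 15.

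Much of the difference lay among contacts close to the count limit. Those with 12 to 14 counts numbered 92, 82 and 148 at 0, 1 and 4 dpa. Those with at least 20 counts numbered 98, 100 and 116. The lists thus differed less in strong contacts than in weak ones.

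The contacts were unevenly spread over the genome. Chromosomes 19, 25, 3, 16 and 2, which had the most over the 3 lists, held 51.7% of the 0 dpa contacts, 48.9% of those at 1 dpa and 55.5% at 4 dpa. Chromosome 19 had 39, 30 and 63, and chromosome 25 had 32, 26 and 54. Most of the contacts on these 2 chromosomes were neighbouring bin pairs in the few groups described below. Shares by chromosome were not computed over all contacts, so the uneven spread cannot be called particular to this range. More contacts were called at 4 than at 0 dpa on 13 chromosomes, fewer on 8 and as many on 3, while at 1 dpa there were more on 3, fewer on 15 and as many on 6. Without chromosomes 19 and 25 the 4 over 0 dpa ratio of numbers was 1.25. Contacts with an anchor in the outer 2 Mb of a chromosome, whose end was taken as the last called bin, made up 17.7%, 16.2% and 22.4%, against 5.3%, 6.29% and 6.37% of all contacts outside chromosome 4. The neighbouring classes had shares as high or higher, 22.2%, 30.3% and 23.7% over 500 kb and up to 1 Mb, and 21.5%, 21.8% and 26.4% over 5 Mb.

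Most of these contacts had another of their list within 50 kb at both anchors, and 40.2%, 41.3% and 21.6% at 0, 1 and 4 dpa had none. By the authors' marks, given below, 51.1% of those at 1 dpa were singletons. Bin pairs whose anchors both lay within 50 kb of those of another were chained into bundles, and the 474 pairs of the 3 lists formed 174 bundles. Of these, 129 were single pairs, 23 had at least 5 pairs and 11 had at least 10. When each list was chained by itself, the 0 dpa contacts fell into 142 bundles, those at 1 dpa into 124 and those at 4 dpa into 120. The 4 dpa list therefore had more contacts in fewer bundles, 3.05 pairs per bundle against 1.91 at 0 dpa and 1.9 at 1 dpa. Bundles of at least 5 pairs held 39.5%, 34.9% and 64.2% of the contacts at 0, 1 and 4 dpa. In the class over 500 kb and up to 1 Mb these shares were 33.9%, 31.8% and 39.7%, and over 5 Mb they were 15.8%, 15% and 21.1%.

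The authors' own clusters of neighbouring calls showed the same order. Contacts marked as singletons numbered 127, 120 and 115 at 0, 1 and 4 dpa, or 46.9%, 51.1% and 31.4% of these contacts, against 16.9%, 19.5% and 16% of all contacts outside chromosome 4. The neighbouring classes also had high singleton shares, lowest at 4 dpa. These were 46.1%, 52% and 40.3% over 500 kb and up to 1 Mb, and 79.7%, 79.9% and 69.4% over 5 Mb. Those in clusters marked as broad peaks numbered 65, 50 and 143, or 24%, 21.3% and 39.1%. Over all contacts outside chromosome 4, broad peaks made up 20.2%, 20.1% and 21.7%. Both neighbouring classes also had their highest share at 4 dpa, with 14.6%, 18.8% and 23.5% over 500 kb and up to 1 Mb, and 8.86%, 11.3% and 18.3% over 5 Mb.

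The largest bundle lay on chromosome 19, between 41560001–41740000 and 43180001–43250000, and had 20, 13 and 32 called pairs in the 0, 1 and 4 dpa lists. It held separate strong points. The pair of bins at 41620001–41630000 and 43180001–43190000 had 57, 47 and 49 counts, and the pair at 41710001–41720000 and 43240001–43250000 had 36, 30 and 48. Another, at 41640001–41650000 and 43240001–43250000, had 39, 27 and 36. All of these strong points were thus present at every time. The 10 pairs of the bundle called in all 3 lists summed to 258, 227 and 269 counts, a 4 over 0 dpa ratio of 1.04 (95% interval 0.876 to 1.24). This interval, like all intervals here, covers counting error alone, and the summed counts of bundles are not scaled for depth. The number of called pairs around the strong points differed more between the lists than these sums.

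**Figure D2:**
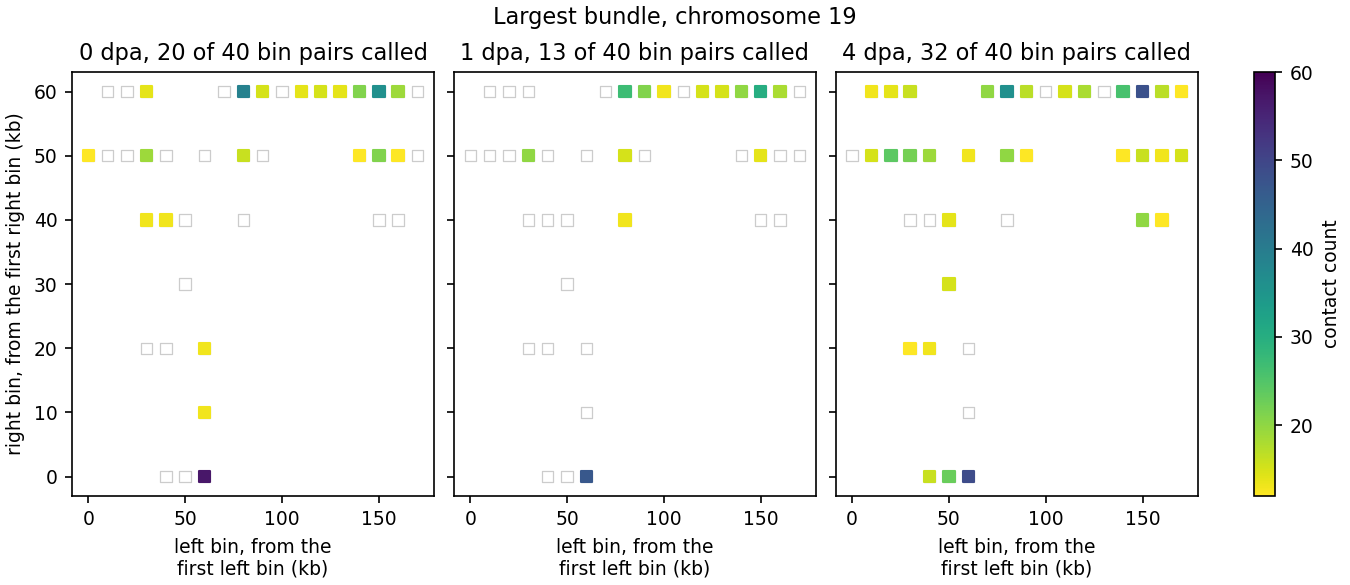
Bin pairs of the largest bundle, on chromosome 19, at 0, 1 and 4 dpa, with the offset of the left bin and of the right bin in kb from the first bin on each side on the axes. Filled squares are called pairs coloured by contact count, and open grey squares are pairs called only at another time. The strongest pair, with 57, 47 and 49 counts, is filled in all panels, and 20, 13 and 32 of the 40 squares are filled.

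The bundle on chromosome 25 between 35040001–35160000 and 36300001–36380000, with an anchor in the outer 2 Mb, differed most between lists. It had 12, 8 and 34 pairs. No pair stood out in it, the highest counts being 21, 16 and 26. Only 3 of its 36 pairs were called in all lists, with summed counts of 46, 45 and 59, a 4 over 0 dpa ratio of 1.28 (0.858 to 1.93). Its ends also held nearer called contacts, 16, 11 and 14 within the left end and 5, 5 and 4 within the right end.

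Chromosome 19 carried a second pair of bundles that shared a left end. The bundle between 18120001–18160000 and 19730001–19880000 had 16, 12 and 21 pairs at 0, 1 and 4 dpa. The neighbouring bundle between 18150001–18210000 and 19970001–20070000 had 2, 4 and 10. In the first, the pair at 18130001–18140000 and 19850001–19860000 had 45, 39 and 33 counts, lower at 4 dpa, although more pairs of the bundle were then called. The right end of the first also anchored 15, 15 and 18 nearer contacts of up to 1 Mb, of which 11, 12 and 12 had their other anchor outside that end. Its left end anchored 1, 0 and 0.

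On chromosome 16 a single bin was the busiest anchor in every list. The bin at 25810001–25820000 had 11, 10 and 17 long contacts at 0, 1 and 4 dpa and no called contact of up to 1 Mb at any time. Most of its partners lay in a pair of bundles on its left, at 22300001–22400000 with 10, 10 and 13 pairs and at 22490001–22630000 with 6, 5 and 8. These numbers are of whole bundles, and the right end of the first bundle reaches beyond this bin, to 25840000. One more partner of the bin, at 22680001–22690000, had 12 counts and was called at 4 dpa alone. The strongest, between 22380001–22390000 and this bin, had 37, 33 and 49 counts, at 28.6, 26.7 and 38.9 times the expected count. Of the other busy anchors, some had no nearer contact and some had 1. On chromosome 19, bin 43240001–43250000 anchored 9, 8 and 12 long contacts and 0 nearer ones in each list. On chromosome 13, bin 39460001–39470000 anchored 4, 5 and 10, also with 0 nearer ones. On the same measure, bins 18130001–18140000 and 18150001–18160000 of chromosome 19 each had 1 nearer contact at 0 dpa.

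Most anchors of these contacts had no called contact of up to 200 kb. They used 389, 346 and 428 different anchor bins in the 3 lists, of which 18%, 17.3% and 18.5% were also an anchor of a called contact of up to 200 kb. The share was similar for contacts over 500 kb and up to 1 Mb (19.2%, 15.2% and 17.9%) and for those over 5 Mb (15.2%, 11.4% and 16.2%). For contacts over 200 and up to 500 kb it was 32.7%, 27.4% and 29.9%. When an anchor 1 bin away also counted, the shares were 33.4%, 27.2% and 30.4% for the contacts of 1 to 5 Mb and 48.2%, 42.9% and 46.7% for those of 200 to 500 kb. Whether the order of sequence in the assembly or in the Ekkwill genome bears on bins with distant partners alone was not tested.

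The other large bundles differed in whether pairs or counts varied between lists. On chromosome 25, between 7010001–7050000 and 8200001–8260000, 14, 12 and 14 pairs were called, 12 of them in all lists with summed counts of 339, 275 and 350. The 1 over 0 dpa ratio of these sums was 0.811 (0.689 to 0.954) and the 4 over 0 dpa ratio 1.03 (0.887 to 1.2). These are ratios of raw counts, not scaled for depth. Over all shared pairs outside chromosome 4 the median count ratio was 0.909 at 1 dpa and 1.08 at 4 dpa. Both values lie within the intervals of this bundle. The strongest pair of the bundle, at 7030001–7040000 and 8220001–8230000, had 47, 35 and 68 counts. On chromosome 2, between 41750001–41800000 and 42800001–42960000, 11, 15 and 19 pairs were called, with 1 dpa above 0 dpa. On chromosome 13, between 38300001–38400000 and 39460001–39480000, there were 5, 6 and 12. The bundle on chromosome 3 between 3790001–3890000 and 4990001–5130000 went the other way, with 10, 7 and 8 pairs, and its 7 pairs called in all lists summed to 154, 140 and 128 counts.

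Across the 23 bundles with at least 5 pairs, all were called at each time, and 19 had more pairs at 4 than at 0 dpa, 3 as many and 1 fewer. Between 1 and 0 dpa, 8 had more, 6 as many and 9 fewer. Without the 11 bundles of at least 10 pairs, the 4 over 0 dpa ratio of the number of contacts was 1.16. Those 11 held 70 of the net difference of 95 contacts. Bundle size was counted over all lists, which favours bundles that were large at 4 dpa. The 129 single-pair bundles showed the opposite order, with 98, 84 and 73 called at 0, 1 and 4 dpa. That set leaves out every pair with a neighbour in any list, which favours this order. With each list chained by itself, single pairs numbered 109, 97 and 79.

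**Figure D3:**
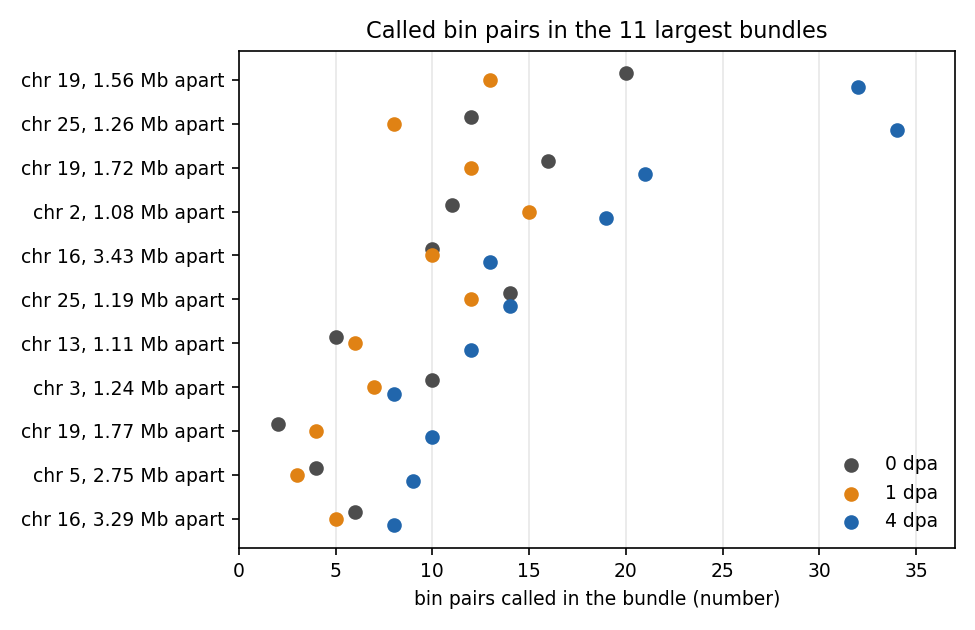
Number of called bin pairs (horizontal axis) at 0, 1 and 4 dpa in each of the 11 bundles with at least 10 pairs, labelled by chromosome and by the span of the strongest pair in Mb. The 4 dpa point is the highest in 9 bundles, is level with 0 dpa at 14 in the chromosome 25 bundle of 1.19 Mb, and lies below 0 dpa in the chromosome 3 bundle, at 8 against 10.

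The study's design asks which contacts of regenerating fins are absent from uninjured fins. A contact was taken to have a counterpart in another list if both anchor starts of a called pair there lay within 10 kb of its own. At 4 dpa, 87 of the 366 contacts (23.8%, exact binomial interval 19.5 to 28.5) had no counterpart at 0 dpa, against 20.6% of all 4 dpa contacts outside chromosome 4. At 1 dpa, 29 of 235 (12.3%, 8.42 to 17.2) had none, against 11.6% of all. Both shares were close to those of contacts of any span. In the class over 500 kb and up to 1 Mb the 4 and 1 dpa shares were 32% and 14.4%, and over 5 Mb they were 19.7% and 16.4%. Of the contacts without a 0 dpa counterpart, 20 at 4 dpa had a counterpart at 1 dpa (5.46%, against 4.63% of all) and 11 at 1 dpa had a counterpart at 4 dpa (4.68%, against 4.9% of all). The other 67 at 4 dpa (18.3%, against 16.0% of all) and 18 at 1 dpa (7.66%, against 6.74% of all) were matched at no other time.

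In the other direction, fewer uninjured contacts of this range than of any span lacked a counterpart. With 1 contact per bundle this order held at 1 dpa alone, and the shares of all contacts were not reduced in that way. At 1 dpa, 50 of the 271 (18.5%, 14 to 23.6) had no counterpart, against 29.2% of all 0 dpa contacts, and at 4 dpa 46 (17%, 12.7 to 22) had none, against 23% of all. For 0 dpa contacts over 500 kb and up to 1 Mb these shares were 27.9% and 21.1%. Over 5 Mb they were 21.5% and 31.6%, so a share below that of all contacts was not particular to this range. At both later times, 204 (75.3%, 69.7 to 80.3) had a counterpart, against 64.7% of all. Another 21 (7.75%) had none at 1 dpa and one at 4 dpa, against 12.3% of all, and 29 (10.7%) had none at either time, against 16.9% of all. Between the regenerating stages, 35 of 235 contacts at 1 dpa (14.9%) had no 4 dpa counterpart, against 14.3% of all, and 96 of 366 at 4 dpa (26.2%) had no 1 dpa counterpart, against 29.2% of all. The 3 lists enter several of these comparisons, and neighbouring pairs are not independent, so the intervals are likely too narrow.

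Absence from another list went with a low count. Among 0 dpa contacts with 12 to 14 counts, 34.8% had no 1 dpa counterpart and 32.6% no 4 dpa counterpart. Among those with 20 to 29 counts the shares were 5% and 6.67%. All 38 contacts with at least 30 counts at 0 dpa had a counterpart at both later times, which leaves an upper exact bound of 9.25% for those without one. The 4 dpa contacts without a 0 dpa counterpart had a median of 13 counts, against 17 for the rest, and only 7 of the 87 had 20 or more. When identical bins were asked for, 34.7% and 28% of 0 dpa contacts were missing at 1 and 4 dpa, against 53.4% and 44.8% of all. Of the 1 and 4 dpa contacts, 24.7% and 46.7% were then missing at 0 dpa, against 28.8% and 41.8% of all. With a count of at least 20 asked of the contact itself, a limit chosen after seeing the data, the shares without a counterpart within 10 kb were 3.06%, 4.08%, 1% and 6.03%. Shares by count were not computed over all contacts, so their fall with count cannot be called particular to this range. Taking 1 contact per bundle put uninjured contacts without a 4 dpa counterpart at 30.4%, above the 23% of all contacts. Those with both later counterparts were then 62.3%, below the 64.7% of all, and those without a 1 dpa counterpart 26.1%, below 29.2%. The shares of all contacts were not reduced to 1 per bundle. Leaving out singletons put uninjured contacts without a 4 dpa counterpart at 9.72%.

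**Figure D4:**
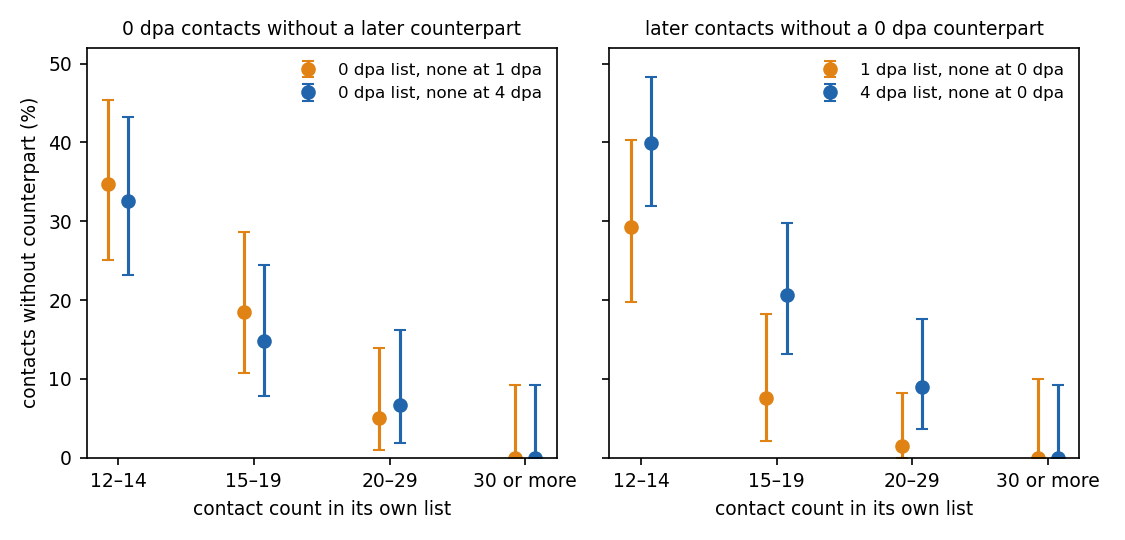
Share of contacts without a counterpart in another list, in percent, by the contact count in their own list; the left panel takes 0 dpa contacts and the right panel 1 and 4 dpa contacts, with bars for exact binomial intervals that cover counting error alone. The shares are highest at 12 to 14 counts, 39.9% for 4 dpa contacts without a 0 dpa counterpart, and 0 at 30 or more counts in all 4 comparisons.

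Contacts without a counterpart were placed differently in the direction towards 4 dpa and in the direction away from 0 dpa. Of the 87 contacts at 4 dpa without a 0 dpa counterpart, 60 lay in a bundle that was called at 0 dpa, and 62.1% had a 0 dpa contact within 5 bins at both ends. Of the 46 contacts at 0 dpa without a 4 dpa counterpart, 6 lay in a bundle called at 4 dpa, and all 46 were singletons. Those 46 also had a longer median span, 1.96 Mb, than the 87, 1.31 Mb. At 1 dpa, 11 of the 29 contacts without a 0 dpa counterpart lay in a bundle called at 0 dpa, and 14 of the 50 uninjured contacts without a 1 dpa counterpart lay in a bundle called at 1 dpa. Thus the 4 dpa contacts without a counterpart stood mostly beside contacts of uninjured fins, and the uninjured contacts without one stood mostly alone. The same shares were not computed for other spans. Among all contacts of this range, bundles of at least 5 pairs held 64.2% at 4 dpa, against 39.5% at 0 dpa.

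By bundle, 87 of the 174 were called at all times and held 374 of the 474 pairs. Those called at 0 dpa alone numbered 25, at 1 dpa alone 16 and at 4 dpa alone 18, and 2 were called at 1 and 4 dpa but not at 0 dpa. All 25 and all 16 were single pairs, and 25 pairs made up the 18. Bundles over the 3 lists together were not formed for other spans, so these numbers cannot be called particular to this range. The largest of the 18 lay on chromosome 3, between 8690001–8760000 and 9880001–9920000, and had 4 pairs of 12, 12, 13 and 13 counts, all close to the limit.

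The strongest contact without a 0 dpa counterpart was the 4 dpa pair on chromosome 21 between 42830001–42840000 and 44110001–44120000. Its 28 counts made it 23.5 times expected (exact Poisson interval 15.6 to 34), it had a called neighbour, and it lay in the outer 2 Mb. At 4 dpa, a pair on chromosome 6 at 6250001–6260000 and 7820001–7830000 had 22 counts, 16.2 times expected (10.1 to 24.5), and stood alone. The chromosome 11 pair at 44250001–44260000 and 45450001–45460000 had 21 counts, 16.1 times expected (9.94 to 24.6), in a bundle with 1 call at 0 dpa. On chromosome 13, the pair at 38330001–38340000 and 39460001–39470000 had 21 counts at 4 dpa and 12 at 1 dpa and belonged to a bundle present in uninjured fins. The same held for the chromosome 25 pair at 35140001–35150000 and 36320001–36330000, with 21 counts, in the bundle with the 34 pairs described above. On chromosome 14 the pair at 49820001–49830000 and 52220001–52230000 had 17 counts, 15.1 times expected (8.79 to 24.2), also in a bundle with 1 call at 0 dpa.

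At 1 dpa only 5 bundles held a contact of at least 15 counts without a 0 dpa counterpart. The pairs on chromosome 5 at 2350001–2360000 and 3700001–3710000, and at 7150001–7160000 and 8600001–8610000, had 17 counts each and were called at no other time. The chromosome 16 pair at 22580001–22590000 and 25810001–25820000 had 20 counts at both 1 and 4 dpa and ended on the busiest anchor bin. The pairs on chromosome 25 at 35150001–35160000 and 36360001–36370000 and on chromosome 11 at 44420001–44430000 and 45450001–45460000 had 15 counts each, and 15 and 16 at 4 dpa. So 3 of the 5 were also called at 4 dpa, each in a bundle of uninjured fins.

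Among uninjured contacts with no later counterpart, the highest above its background was the chromosome 11 pair at 39940001–39950000 and 42330001–42340000, whose 21 counts were 18 times the expected number (11.1 to 27.5). Next came chromosome 2, where the pair at 58080001–58090000 and 59640001–59650000 reached 18 counts, 17.8 times expected (10.5 to 28.1). The other 4 named pairs, on chromosomes 20, 25, 21 and 3, had 16, 17, 16 and 16 counts. All 6 were single pairs that belonged to no bundle.

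The contacts called at all times that had the highest count over expected at 0 dpa kept high counts throughout. Because they were picked by their 0 dpa value, their ratios to 0 dpa lean towards falls. On chromosome 5, the pair at 4820001–4830000 and 7570001–7580000 had 55, 37 and 49 counts, at 53.1, 35.5 and 46.7 times the expected count. On chromosome 16, the pair at 7690001–7700000 and 9490001–9500000 had 59, 53 and 57 counts. On chromosome 9, the pair at 15950001–15960000 and 18260001–18270000 had 59, 55 and 42 counts and no called neighbour in any list. Their ratios between times had intervals that included 1, with the lowest at 0.67 (0.429 to 1.04) for chromosome 5 at 1 dpa. On chromosome 12, the pair at 43900001–43910000 and 45000001–45010000 had 46, 60 and 35 counts, highest at 1 dpa. Its 4 over 1 dpa ratio was 0.578 (0.37 to 0.891). The chromosome 5 pair at 2280001–2290000 and 4530001–4540000 had 47, 32 and 29, a 4 over 0 dpa ratio of 0.608 (0.369 to 0.986).

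Taken as a set, contacts called in the same bins had similar summed and median counts in the 3 lists, while single pairs varied. The 154 pairs called in all 3 lists summed to 3735, 3615 and 3673 counts, with medians of 21, 20 and 21. For the 177 pairs called at 0 and 1 dpa, the median ratio of count over expected was 0.97 (0.932 to 1.02), against 0.943 over all 12758 such pairs outside chromosome 4. For the 195 called at 0 and 4 dpa it was 0.985 (0.952 to 1.05), against 0.899 over 15102. Between 4 and 1 dpa, 180 pairs had a median of 1.03 (0.952 to 1.1), against 0.947 over 12143. The expected counts moved little between times at this range: their median 4 over 0 dpa ratio was 1.02, against 1.19 over all shared pairs. On unscaled counts alone, the median 4 over 0 dpa ratio was 1, against 1.08 over all, the reverse order. Between 4 and 1 dpa it was 1.06, against 1.18, also reversed, and between 1 and 0 dpa 0.96, against 0.909. Whether these pairs lay above or below all shared pairs thus depended on the measure. Only pairs past the limits at both times enter, which narrows the differences they can show, and the side of 1 on which the medians lay changed with the scaling and the pairs kept. With raw counts scaled by their total they were 1.08 at 1 dpa and 0.944 at 4 dpa, and centred on all shared pairs 1.03 and 1.1. Between 4 and 1 dpa the medians under these scalings were 0.893 and 1.08.

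At least 1.5-fold higher at 1 dpa were 12 of the 177 pairs, or 6.78%, against 1.73% of all shared pairs, and 19 were as much lower, or 10.7%, against 6.88%. At 4 dpa, 15 of 195 were higher, or 7.69%, against 1.91%, and 17 lower, or 8.72%, against 9.93%. Between 4 and 1 dpa, 23 of 180 were higher, or 12.8%, against 3.23%, and 19 lower, or 10.6%, against 5.71%. All shared pairs were not matched to these by count or expected count, on which the counting error of a ratio depends. The larger shares here, also under the scalings below, therefore cannot be read as more change at this range. The counting interval of the ratio excluded 1 for 1 higher and 4 lower pairs at 1 dpa, and for 3 higher and 9 lower at 4 dpa. Counting error alone makes such intervals exclude 1 for some pairs, so these few cannot be taken as changed. The same numbers were not computed over all shared pairs, so they cannot be called particular to this range. On raw counts divided by their sum, 22 pairs were up and 9 down at 1 dpa, against 4.67% and 3.83% of all shared pairs, and 12 were up and 22 down at 4 dpa, against 4.78% and 4.75%. Centring the ratios gave 16 up and 13 down at 1 dpa, against 3.24% and 4.19% of all, and 25 up and 10 down at 4 dpa, against 4.3% and 4.38%. The split between higher and lower pairs thus depended on the scaling. Counts correlated across the shared pairs, with Pearson's r on log2 counts of 0.716 for 0 and 1 dpa over 177 pairs and 0.67 for 0 and 4 dpa over 195, as a description of pairs that share the lists' depth and bundles.

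**Figure D5:**
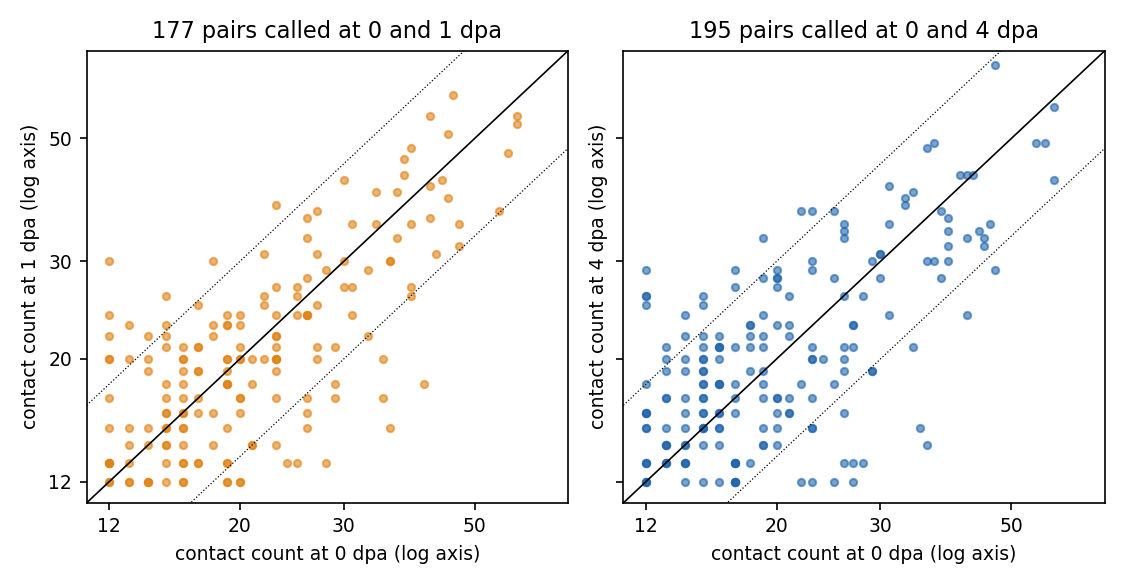
Contact counts of the 177 bin pairs called at 0 and 1 dpa (left) and the 195 called at 0 and 4 dpa (right), each point a bin pair, on logarithmic axes. The solid line marks equal counts and the dotted lines a 1.5-fold difference; most points lie between the dotted lines, and no point lies below 12 counts because such pairs are not listed.

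The largest ratio at 1 dpa belonged to the chromosome 6 pair at 5810001–5820000 and 7930001–7940000. Its counts were 12, 30 and 25, and its 1 over 0 dpa ratio was 2.5 (1.24 to 5.37). At 4 dpa the largest was on chromosome 3, at 2170001–2180000 and 3510001–3520000, with 12, 20 and 29 counts and a ratio of 2.37 (1.17 to 5.1). On chromosome 5, a pair at 4810001–4820000 and 7560001–7570000, 1 bin from the strong constant pair on each side, had 12, 13 and 26 counts and a 4 over 0 dpa ratio of 2.13 (1.04 to 4.64). All 3 had the lowest count that can be listed at 0 dpa.

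The smallest ratio at both later times was that of the chromosome 3 pair at 3830001–3840000 and 5120001–5130000. It had 36 counts in uninjured fins and 15 and 14 later, with ratios of 0.421 (0.214 to 0.788) and 0.388 (0.193 to 0.738). On chromosome 25, the pair at 7040001–7050000 and 8220001–8230000 had 41, 18 and 43 counts, low at 1 dpa alone. The chromosome 9 pair at 53490001–53500000 and 54620001–54630000 had 28, 13 and 13. The chromosome 5 pair at 320001–330000 and 1340001–1350000 had 35, 17 and 15, and the chromosome 23 pair at 19390001–19400000 and 22220001–22230000 had 27, 25 and 12, low at 4 dpa alone. Being the extremes of all shared pairs, these have intervals that take no account of how they were picked.

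Counting contacts of this range alone, the bundles rarely linked up into larger structures. Partners at other spans were left out by the rule. Of the anchor bins, 20.1%, 18.8% and 22.2% at 0, 1 and 4 dpa also had a called contact of up to 1 Mb. The numbers below were not computed for other spans, so they cannot be called particular to this range. With anchor bins chained within 50 kb, the contacts joined 322 loci, of which 298 had a single partner locus and 2 had 3. One set of 3 loci was joined on all sides, on chromosome 6 at 1–30000, 1090001–1160000 and 2260001–2280000. At 0 dpa 2 of its sides were called, at 1 dpa 1 and at 4 dpa all 3. Its first side, at 1–10000 and 1090001–1100000, had 17, 13 and 29 counts, and the side between its outer loci, with 17 and 14 counts in its called pairs, was called at 4 dpa alone.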

How the data were processed

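Caudal fins were profiled by HiCAR, with 3 pools of 10 fins at each of 0, 1 and 4 dpa. BWA and danRer11 are named in the submitters' processing notes. Which interaction caller and background model were used, and how the pools entered a list, is not given in the sources used here. Per the file headers, the deposited lists give for each pair of 10 kb bins a contact count, an expected count, an FDR (a q-value) and the −log10 p of its cluster, which was not used further. The name of each list gave its time point.

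Contacts over 1 and up to 5 Mb outside chromosome 4 were selected with pandas 2.3.3 and matched to the whole other lists. Exact binomial, conditional binomial and Poisson intervals at the 95% level came from SciPy 1.17.1, and intervals of medians from order statistics. Matching, chaining and intervals were tested on simulated data. Contacts were named by rule: in each of 4 sets the 6 with the highest count over expected, 1 per bundle, at 15 or more counts; the 3 largest and 3 smallest ratios at 1 and 4 dpa; the 8 largest bundles; and the 5 busiest anchors of each list. Not all are described. Further bundles of at least 10 pairs, strong pairs within bundles and the chromosome 3 and 6 examples were chosen after their values were seen. Genes at anchors and gene lists had been planned and were not examined, since no danRer11 annotation was used. The members and lists were chosen with earlier results of these data known.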

Additional observations from a re-analysis of the deposited data

How the results depend on the processing

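No paired analysis was possible because the lists give 1 value per time point and none per replicate, and for the same reason no replicate could be left out. The limit on FDR and lists of equal length, 12 of the 69 alternative values, removed no contact of this range and so tested nothing. Of the other 57, 28 stayed within the counting interval of the reported value, 24 moved beyond it and 5 medians changed their side of 1. Call A and B the shares of 0 dpa contacts without a counterpart at 1 and at 4 dpa, C and D the shares of 1 dpa and 4 dpa contacts without one at 0 dpa, and E the share of 0 dpa contacts with both later counterparts. Identical bins gave 34.7%, 28%, 24.7%, 46.7% and 56.8% for A to E. A count of at least 20 on one side, added after seeing the data, gave 3.06%, 4.08%, 1%, 6.03% and 93.9%. Asked of all lists, it gave 24.5% for B, 20% for C and 66.3% for E. Without singletons B, C and D were 9.72%, 6.09% and 33.1%. With 1 contact per bundle A, B, D and E were 26.1%, 30.4%, 18.6% and 62.3%. Matching within 2 bins gave 16.7% for D, and leaving out contacts at 20 or more times expected gave 23.9% for A and 69.4% for E. The median 1 over 0 dpa ratio was 1.08 with raw counts and 1.03 when centred. The 4 over 0 dpa median was 0.944 with raw counts, 1.1 when centred, 1.01 without ratios of 20 or more and 1.02 for 1 to 2 Mb alone. The cause of these shifts was not tested. Depth limits what can be seen: 33.9%, 34.9% and 40.4% of the contacts at 0, 1 and 4 dpa had 12 to 14 counts, and pairs below the calling limits carry no value.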

Other observations

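On chromosome 4, which the selection left out, 11 contacts at 0 dpa, 5 at 1 dpa and 9 at 4 dpa spanned over 1 and up to 5 Mb. Their number did not follow the order of the total over the other chromosomes, where 4 dpa had the most. Chromosome 4 was not alone in this, as 8 of the others had fewer contacts at 4 than at 0 dpa and 3 had as many. The number on chromosome 4 is small, and no test between lists was possible.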
